A study of Mus musculus with 39 samples.

Results

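The viewpoint described here was the promoter fragment of Slc25a37, which encodes mitoferrin, and it was 1 of 22 viewpoint names in the NG Capture-C tables of the study. It was taken by its name and position in the labels and column headers. The viewpoint was present in 21 of the 39 samples of the series. NG Capture-C joins DNA ends that lie close together in the nucleus, captures the ligation products of a chosen DpnII fragment with oligonucleotides and counts the fragments they were joined to. These counted products are called interactions. All libraries came from C57Bl6 mouse foetal liver (MFL) erythroblasts from mid-gestation embryos, which were expanded in culture, depleted of Ter119-expressing cells and studied before (0 h) or after 30 h in differentiation medium. Wild type MFL 0 h and MFL 30 h comprised 3 biological replicates each, and each of these libraries was sequenced on a NextSeq and on a MiSeq. A second experiment compared 3 replicates of WT with 3 replicates of DKO erythroblasts, both at 30 h, where DKO cells carry deletions of the alpha-globin regulatory elements R1 and R2 on chromosome 11. The last set held 1 wild type library each of 30 h cells that were harvested prior to treatment (untreated), treated with the solvent DMSO for 3 h, or treated for 3 h with DRB, an inhibitor of transcriptional elongation.

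Mitoferrin is a carrier protein of the inner mitochondrial membrane. It brings iron into the mitochondria of developing red cells, where the iron is inserted into heme, the cofactor of haemoglobin. Slc25a37 is therefore an erythroid gene, like the globin genes, but lies on another chromosome. In a capture experiment, the interactions of a promoter fall off with distance, and regions that exceed this decay are those ligated to the promoter more often than their neighbours.

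The viewpoint fragment was chr14:69902454-69903469 (mm9), 1016 bp long, with a DpnII site at both ends and 0 inside. It spans the start of Slc25a37 (ENSMUSG00000034248.6, chr14:69859908-69903160, minus strand, 43.3 kb), with 707 bases inside the gene and 309 bases before it. Positions on the gene side of the viewpoint (lower coordinates) are called downstream and have negative distances, and positions on the other side are called upstream and have positive distances. The annotation placed the starts of 12 other protein-coding genes within 500 kb. Of these, 8 lie upstream, the nearest being D930020E02Rik at +9.4 kb and Entpd4, a nucleotide-hydrolysing enzyme of internal membranes, at +52.2 kb. The other 4 lie downstream and include the homeobox gene Nkx2-6 (-113.3 kb).

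In the MFL libraries of the NextSeq run, between 13839 and 29218 reporter reads were counted at 0 h and between 5077 and 11075 at 30 h. WT and DKO libraries had 19532 to 38956 reads. The untreated, DMSO and DRB libraries had 7473, 4840 and 10329. Fragments within 1 kb of the viewpoint were left out, and values were scaled to 100000 reads on chromosome 14 (cis reads). On this scale 3 reads were worth 12.3 to 111.3 in the replicated NextSeq libraries and 47.0 to 103.4 in the single ones. Intervals and limits from read counts cover counting error only. Repeated reads differed with the groups. Fragments over 5 Mb away that had any read averaged between 2.57 and 3.16 reads at 0 h and between 1.53 and 1.63 at 30 h in the NextSeq run, but 1.05 to 1.08 and 1.0 to 1.02 in the MiSeq run of the same libraries and 1.1 to 1.14 in WT and DKO. The part of repeated reads in the comparison of 30 h with 0 h was not tested, so MiSeq values stand beside the NextSeq values below. WT replicates 2 and 3 differed by no more than sampling noise from this viewpoint, their chi-square over its degrees of freedom being 1.0, against 1.63 and 1.78 for the other WT pairs. From the other viewpoints of the same libraries, the ratio for replicates 2 and 3 was 1.15 (Hba1), 1.35 (Hba2), 1.01 (Hbb1) and 0.97 (Hbb2). They shared 0.62% of the fragments on other chromosomes, against 0.99% and 0.91% for the other WT pairs. They were kept as separate replicates because of the Hba2 value, although the Hbb1 and Hbb2 values did not exceed sampling noise either, and values without either one are given with the comparison of DKO and WT. For DKO replicates 2 and 3 the ratio was 1.16 from this viewpoint, 1.17 (Hba1), 1.11 (Hba2), 0.93 (Hbb1) and 1.35 (Hbb2). These DKO replicates shared 0.41% of the fragments on other chromosomes, against 1.01% and 0.74% for the other DKO pairs. They were also kept separate. From the Hba1/2 viewpoints of the same libraries, the R2 fragment had 0, 0 and 5 reads in DKO replicates 1 to 3 and 364 to 451 reads in WT. The R1 fragment had 48 to 72 reads in DKO and 263 to 360 in WT, so these reads were fewer but not absent, and they do not by themselves show that R1 was deleted.

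The Slc25a37 promoter interacted mainly with a region that began in its own gene and reached about 50 kb upstream, before the start of Entpd4. At MFL 30 h, 53.8% ± 1.42 (SD, n = 3) of cis reads lay within 50 kb, and 62.8% ± 1.33 within 500 kb. The upstream side held 33.4% ± 1.67 of cis reads within 50 kb and the downstream side 20.4% ± 0.598. The upstream excess lay between 10 and 50 kb, with 26.4% ± 1.23 upstream and 9.44% ± 0.544 downstream, whereas within 10 kb the downstream side held more, 10.95% ± 0.547 against 7.07% ± 0.447. Between 50 and 100 kb the shares were 2.90% ± 0.208 and 1.41% ± 0.363. The same order held at 0 h, in WT, in DKO and in the single libraries, where the interval from 10 to 50 kb upstream held 21.7% ± 0.335, 27.9% ± 2.54, 24.3% ± 0.834 and 19.5% to 19.9% of cis reads. Within 50 kb, 2 kb bins held 4.96 DpnII sites on average upstream and 4.75 downstream, and their part in the shares was not tested.

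**Figure D1:**
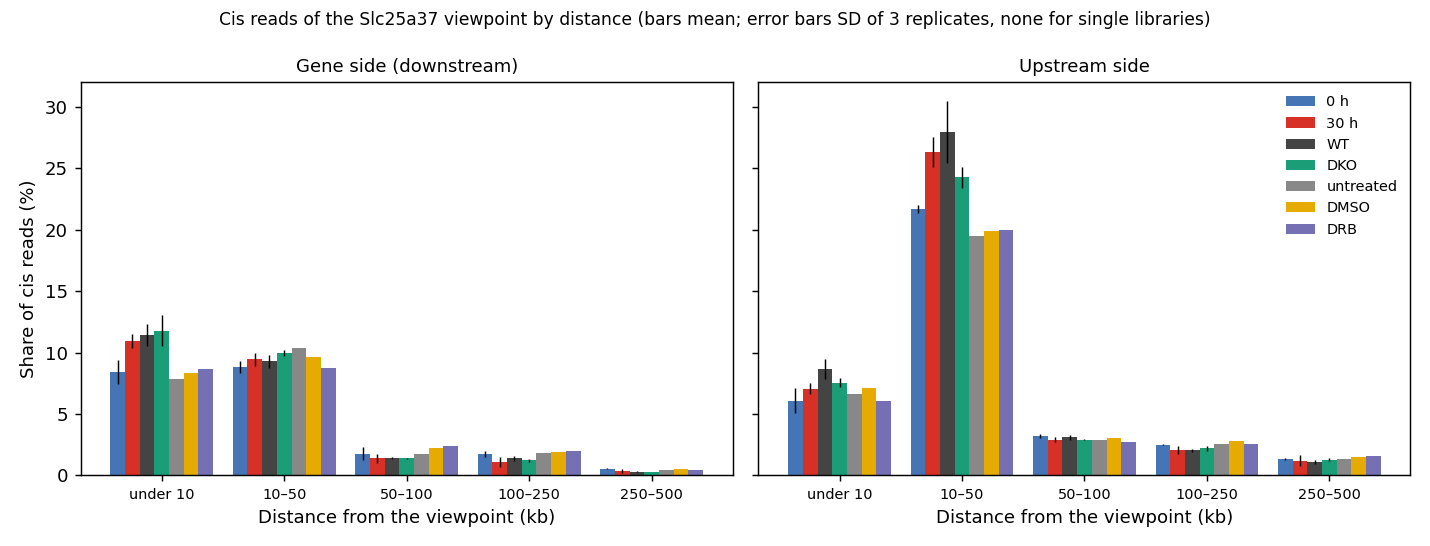
Share of cis reads of the Slc25a37 viewpoint (y axis, percent) by distance (x axis, kb), downstream on the left and upstream on the right, with bars for group means and SD for groups of 3 replicates. The interval from 10 to 50 kb upstream was the largest of the intervals within 500 kb in all groups shown, at 19.5% to 27.9%.

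Interactions dropped before the start of Entpd4. At 30 h the means were 2564 at +40 kb, 1178 at +42 kb, 905 at +44 kb and 437 at +48 kb. The bins at +50 and +54 kb, beside the Entpd4 start, were level at 505.0 and 503.5. The ratios that follow therefore do not place a boundary at Entpd4. The interval from 40 to 50 kb upstream held 3.16 ± 0.24 times (SD, n = 3) the reads of the interval from 50 to 60 kb at 0 h, 4.88 ± 2.51 times at 30 h, 3.77 ± 0.41 times in WT and 3.71 ± 0.28 times in DKO. The untreated, DMSO and DRB libraries gave 3.11, 3.35 and 3.91. On the downstream side, where 50 kb lies beyond the end of Slc25a37, the group means ran from 2.52 to 3.11, and the single libraries from 1.91 to 3.27. The replicates at 30 h ranged from 3.2 to 7.77, so the values at 30 h and 0 h overlapped.

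Among bins of 2 kb between 10 and 500 kb from the viewpoint, 9 of the 10 highest at MFL 30 h lay upstream, between D930020E02Rik and Entpd4. They formed groups from +18 to +22 kb, at +26 kb and from +32 to +40 kb. The highest was the +40 kb bin (chr14:69942001-69944000), with 2968, 2398 and 2327 reads per 100000 cis reads in the 3 replicates at 30 h. The other member of the 10 was an intronic bin of Slc25a37 itself at -12 kb, with 1413 ± 38.0. Nearer to the viewpoint, the intronic bin at -8 kb (chr14:69894001-69896000) reached 4453, 4659 and 3965, above the bins beside it at -10 kb (627 ± 167) and -6 kb (949 ± 465). The -8 kb bin holds 12 DpnII sites, where chromosome 14 bins have a median of 5.0, and the part of this number in its value was not tested. Per site it held 363 reads per 100000 cis reads, and the 10 highest bins held between 212 (+22 kb) and 793 (+18 kb) on the same scale.

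**Figure D2:**
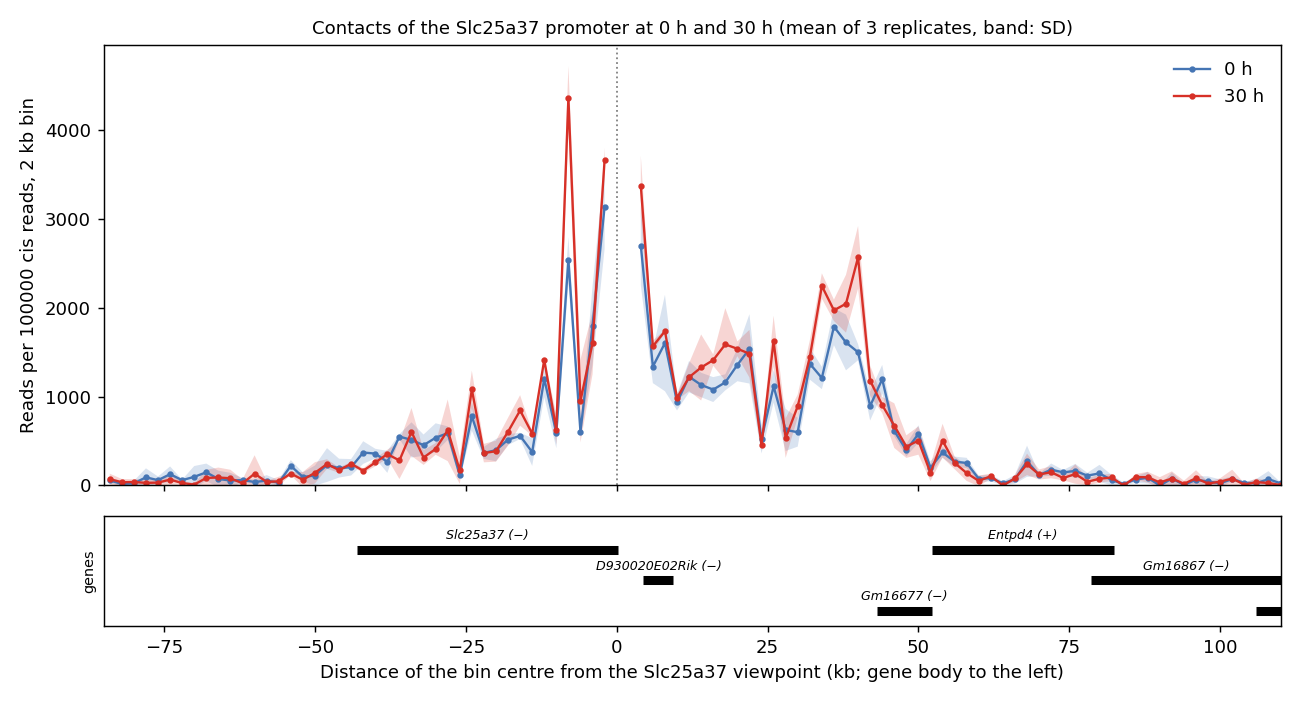
Reads per 100000 cis reads in 2 kb bins (y axis) against distance from the Slc25a37 viewpoint in kb (x axis), with genes below, as mean (line) and SD (band) of 3 replicates at 0 h and 30 h. A local peak lay at -8 kb at both times, with means of 2533 at 0 h and 4359 at 30 h, and between 10 and 50 kb upstream the highest mean was 1785 at +36 kb at 0 h and 2564 at +40 kb at 30 h.

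The fragment under 300 bases with the highest mean at 30 h is shown for the bins at -8, +34 and +40 kb, because the comparison of 30 h with 0 h below turns on these bins. All are from mm9, plus strand, 5′ to 3′, at chr14:69895558-69895654 (97 bases, intron of Slc25a37), chr14:69937235-69937332 (98 bases) and chr14:69943008-69943242 (235 bases), the last 2 between D930020E02Rik and Entpd4. Capitals mark TGANTCA.
-7.4 kb fragment: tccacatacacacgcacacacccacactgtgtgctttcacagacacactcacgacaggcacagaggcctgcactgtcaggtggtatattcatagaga
+34.3 kb fragment: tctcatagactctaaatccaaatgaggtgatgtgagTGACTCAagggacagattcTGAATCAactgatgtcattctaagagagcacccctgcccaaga
+40.2 kb fragment: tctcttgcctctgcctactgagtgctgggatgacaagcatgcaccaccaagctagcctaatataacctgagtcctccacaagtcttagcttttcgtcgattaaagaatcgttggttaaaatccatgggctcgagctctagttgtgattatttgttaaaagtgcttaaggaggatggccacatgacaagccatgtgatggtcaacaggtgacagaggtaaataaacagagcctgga
The +34.3 kb fragment held 2 matches to TGANTCA, which 2.86% of windows of its length held. In the other fragments, TGANTCA had 0 matches. The GATA motif (GATA with A or T before it and A or G after it), CCAAT and CCNCNCCC had 0 matches in all 3, where for example 20.7%, 15.7% and 5.57% of windows as long as the -7.4 kb fragment held them. Motifs were searched on both strands, over windows of chromosome 14, and a match describes letters only and is not evidence of a bound factor. The -7.4 kb fragment had 199, 156 and 224 reads per 100000 cis reads in the 0 h replicates and 668, 518 and 556 at 30 h. The +34.3 kb fragment had 199, 145 and 161 at 0 h and 668, 491 and 307 at 30 h, so neither fragment overlapped between the times. The +40.2 kb fragment had 159, 412 and 265 and then 779, 354 and 512, which overlapped. Because the fragments were chosen for their values at 30 h, these differences are descriptions only.

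Interactions at the promoters of the neighbouring genes were low compared with the region between them and Slc25a37. Of the 12 promoter bins, D930020E02Rik had the highest level at 30 h, with 965, 981 and 1010 reads per 100000 cis reads, but it lay below the bins beside it, which averaged 1734 and 1217. The bin of the Entpd4 start had 141 ± 91.7, where the bins beside it averaged 505.0 and 503.5. Chmp7, which encodes a subunit of the ESCRT-III membrane remodelling complex and starts at +229.3 kb, had 98.7 ± 56.6, against a mean of 40.0 over the 10 bins on each side. In WT the Chmp7 bin had 118, 93.7 and 107, and all 3 values were above the mean of the same 20 bins, 29.4. Loxl2, a lysyl oxidase that crosslinks collagen, had 37.0 ± 41.4, and the remaining 7 bins had 0 to 24.4.

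Comparison of 30 h with 0 h addressed whether the surroundings of the promoter alter as erythroblasts mature. The share of cis reads within 50 kb was 44.8%, 46.8% and 43.6% in the 0 h replicates and 55.0%, 54.2% and 52.3% at 30 h. All values at 30 h were above all values at 0 h, with a log2 difference of 0.26 (two-sided exact permutation p = 0.1, adjusted 0.16 over 8 measures). A p of 0.1 is the smallest that 3 against 3 replicates allow, so no share could pass 0.05. In the MiSeq run the means were 46.9% ± 1.32 and 56.9% ± 2.54 (SD, n = 3). The share within the Slc25a37 gene body was 17.1%, 16.9% and 15.8% at 0 h and 19.2%, 20.2% and 19.5% at 30 h. The upstream 50 kb held 27.1%, 29.4% and 26.9% at 0 h and 35.2%, 33.2% and 31.9% at 30 h. For these the groups again did not overlap, with log2 differences of 0.24 and 0.27 (exact permutation p = 0.1 each, adjusted 0.16). The MiSeq means were 16.8% and 21.3% in the gene body and 29.4% and 34.8% upstream. As shares of the reads within 500 kb instead of all cis reads, the log2 differences were smaller, at 0.10 within 50 kb and 0.11 upstream (exact permutation p = 0.1 each), and 0.08 in the gene body, where the groups overlapped (exact permutation p = 0.2).

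**Figure D3:**
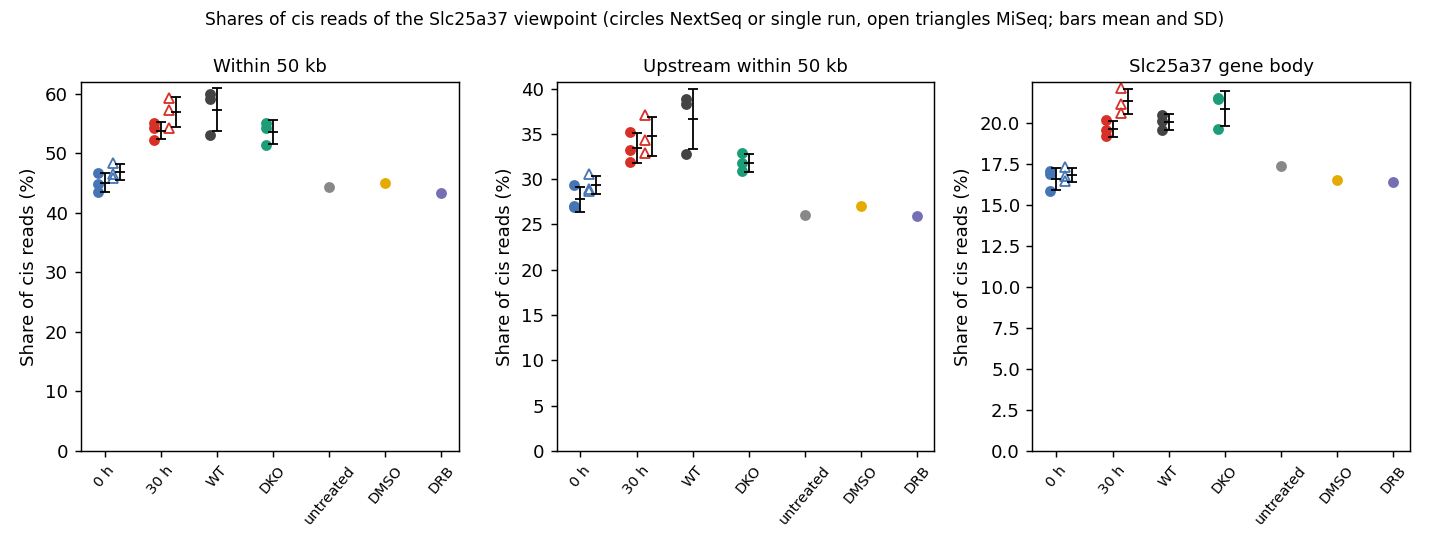
Share of cis reads (y axis, percent) within 50 kb, upstream within 50 kb and in the Slc25a37 gene body for each library by group (x axis), with circles for NextSeq or single runs, open triangles for the MiSeq run, and bars for mean and SD. The 3 replicates at 30 h lay above the 3 at 0 h in both runs, and the untreated, DMSO and DRB libraries lay at 43.4% to 45.0% within 50 kb.

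The balance of both sides differed less. The log2 ratio of downstream to upstream reads within 50 kb was -0.68 ± 0.07 at 0 h and -0.71 ± 0.10 at 30 h (SD, n = 3 each), and the difference of -0.03 had an exact permutation p of 0.7. Its sign was the opposite in the MiSeq run, 0.09. The share of all reporter reads that lay on chromosome 14 was 56.9% ± 2.94 and 57.3% ± 4.66 (exact permutation p = 0.8, n = 3 each). Cis reads beyond 500 kb, the rest of the share within 500 kb, had lower means at 30 h. These were 16.0% against 20.6% upstream, without overlap, and 21.2% against 23.2% downstream. The downstream replicates overlapped, at 20.6% to 21.9% at 30 h and 21.1% to 25.2% at 0 h. These far reads include the repeated reads described above, whose part was not tested.

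The share of Slc25a37 within 50 kb differed between the times by less than that of the alpha-globin promoters in the same libraries. Hba1/2 had 42.0% ± 0.443 at 0 h and 56.3% ± 1.06 at 30 h (SD, n = 3). Relative to Hba1/2, the Slc25a37 share was lower at 30 h than at 0 h by a log2 difference of -0.17, and the groups did not overlap (exact permutation p = 0.1, adjusted 0.16). In the MiSeq run this difference was -0.09, and as shares of all reporter reads it was -0.09 with overlap (exact permutation p = 0.2). Hbb1/2 had 34.2% ± 1.62 and 41.4% ± 0.412, and the Slc25a37 difference from Hbb1/2 was -0.03 (exact permutation p = 0.5).

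No 2 kb bin passed an adjusted p of 0.05 by limma between 30 h and 0 h, among 1528 bins tested (0.0% in either direction). At an unadjusted p under 0.05 there were 11 higher bins (0.72%) and 29 lower bins (1.9%). edgeR called 0 bins and DESeq2 called 2, both higher, with 21 and 8 at an unadjusted p under 0.05. Groups did not overlap in 25 bins that were higher (1.64%) and 41 that were lower (2.68%). Upstream within 50 kb, 18 of 24 bins had a positive difference, with a median log2 difference of 0.18, 7 higher and 1 lower without overlap. In the gene body 11 of 21 were positive, with a median of 0.10. Over all bins tested, 42.7% were positive and the median was -0.29, and 1280 of the 1528 bins lay beyond 500 kb. Counts were also simulated at the depths of these libraries. Their unchanged bins had a median log2 difference of -0.82 by limma, or -0.05 at a mean of at least 100. The median over all bins therefore does not by itself show fewer interactions at 30 h. The simulated counts had known folds, a fixed spread between replicates and no repeated reads, unlike the NextSeq libraries. In them, limma called 11 of 84 bins changed 4-fold, 4 of 88 changed 2-fold and 45 of 1121 unchanged bins. Most of its calls there were thus of unchanged bins, and few of the changed bins were called. The absence of limma calls therefore does not show that no bin differed.

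The bins that DESeq2 called were the intronic -8 kb bin and the +34 kb bin. The -8 kb bin had 2444, 2825 and 2329 reads per 100000 cis reads at 0 h and 4453, 4659 and 3965 at 30 h. The means were 2533 ± 260 and 4359 ± 356 (SD, n = 3), 1.72-fold apart. DESeq2 gave an adjusted p of 0.00204, edgeR 0.0878 and limma 0.92. In the MiSeq run the means were 2435 ± 337 and 4962 ± 627, 2.04-fold apart, with a DESeq2 adjusted p of 0.000778. The +34 kb bin (chr14:69936001-69938000) had 1195, 1090 and 1340 at 0 h and 2375, 2262 and 2092 at 30 h, 1.86-fold apart, with adjusted p of 0.0279 by DESeq2 and 0.887 by limma. Its MiSeq means were 1320 ± 248 and 2165 ± 438, and the groups did not overlap. The +40 kb bin had 1461, 1602 and 1432 at 0 h, against the 30 h values given above, 1.71-fold apart, with a DESeq2 adjusted p of 0.0897. Its MiSeq means were 1724 ± 342 and 2680 ± 391. Of the other bins among the 10 highest, those at -12 and +26 kb did not overlap between the times, with means of 1200 and 1413 and of 1115 and 1622, and the remaining 6 overlapped. In the MiSeq run the -12 kb bin overlapped and the +26 kb bin did not. The 10 highest bins, which include those at +34 and +40 kb, were chosen for their values at 30 h. Whether they overlapped with 0 h is therefore a description only. The -8 kb bin does not fall under the rule for named bins and was chosen after its values were seen.

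**Figure D4:**
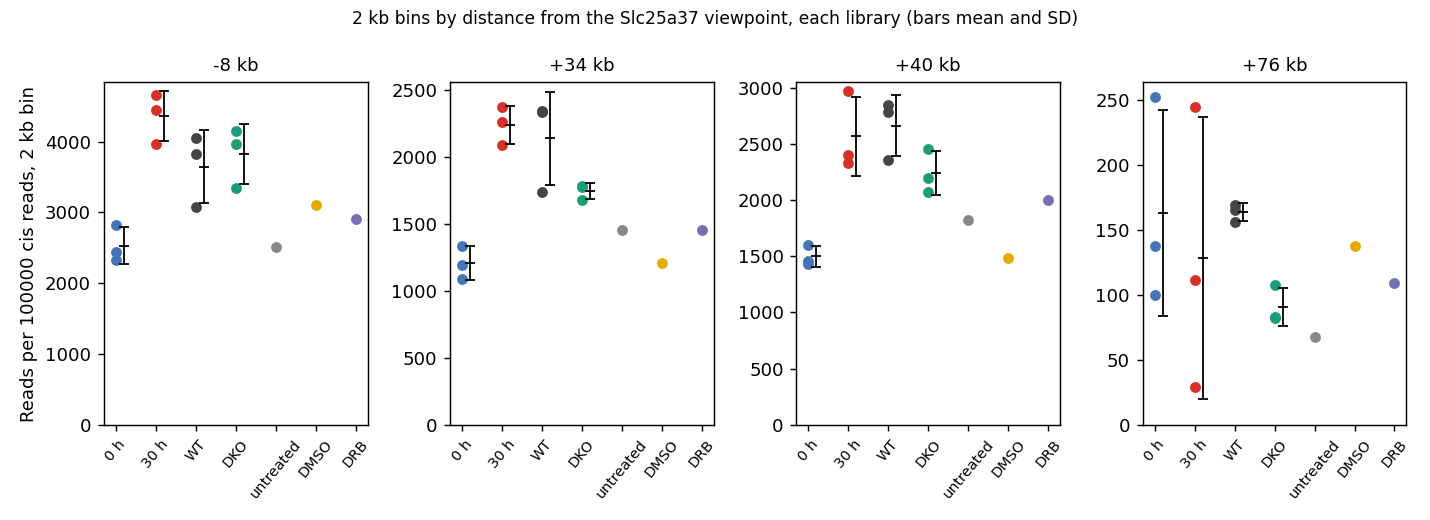
Reads per 100000 cis reads (y axis) in the bins at -8, +34, +40 and +76 kb for each library by group (x axis), NextSeq or single run, with bars for mean and SD. In the first 3 bins the 30 h and 0 h replicates did not overlap, and in the +76 kb bin the DKO values of 82.1 to 107.7 lay below the WT values of 156.5 to 169.7. The bins were chosen for their values in these data.

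Comparison of DKO with WT asked whether loss of the alpha-globin elements on another chromosome alters the interactions of Slc25a37. WT replicates held 53.1%, 59.9% and 59.0% of cis reads within 50 kb and DKO replicates 51.4%, 54.3% and 55.1%. These values overlapped, with a log2 difference of -0.10 (two-sided exact permutation p = 0.3, adjusted 0.4 over 8 measures). Without WT replicate 1 the difference was -0.15 without overlap (exact permutation p = 0.1), without WT replicate 2 or 3 it was -0.06 or -0.07 and without DKO replicate 1 -0.07, and as a share of the reads within 500 kb it was -0.01 (exact permutation p = 0.4). The gene body held 20.1% ± 0.483 in WT and 20.9% ± 1.05 in DKO (SD, n = 3; exact permutation p = 0.3), a log2 difference of 0.06. This was 0.10 without DKO replicate 1 and 0.14 as a share of the reads within 500 kb, both without overlap (exact permutation p = 0.1 each), and 0.03 to 0.04 without DKO replicate 2, DKO replicate 3 or WT replicate 1. Upstream within 50 kb, WT held 32.8%, 38.8% and 38.3% and DKO 30.9%, 31.7% and 32.9%, which overlapped through WT replicate 1 (exact permutation p = 0.2). The log2 difference was -0.20, and as a share of the reads within 500 kb it was -0.11 without overlap (exact permutation p = 0.1). The log2 ratio of downstream to upstream reads was -0.69, -0.88 and -0.89 in WT and -0.59, -0.49 and -0.56 in DKO. This measure did not overlap, and its difference was 0.27 (exact permutation p = 0.1, adjusted 0.4).

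By contrast, Hba1/2 held 58.1% ± 2.67 within 50 kb in WT and 40.6% ± 1.81 in DKO (SD, n = 3). This window takes in sequence of the deleted elements, whose reads are lost in DKO by the deletion itself. The R2 fragment, for example, had 364 to 451 reads in WT and 0, 0 and 5 in DKO. The part of such reads in the Hba1/2 values was not tested. The log2 difference of the Slc25a37 share, -0.10, was smaller in size, and the share relative to that of Hba1/2 was higher in DKO by a log2 difference of 0.42, without overlap (exact permutation p = 0.1, adjusted 0.4). Against Hbb1/2 it was 0.08 (exact permutation p = 0.9).

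**Figure D5:**
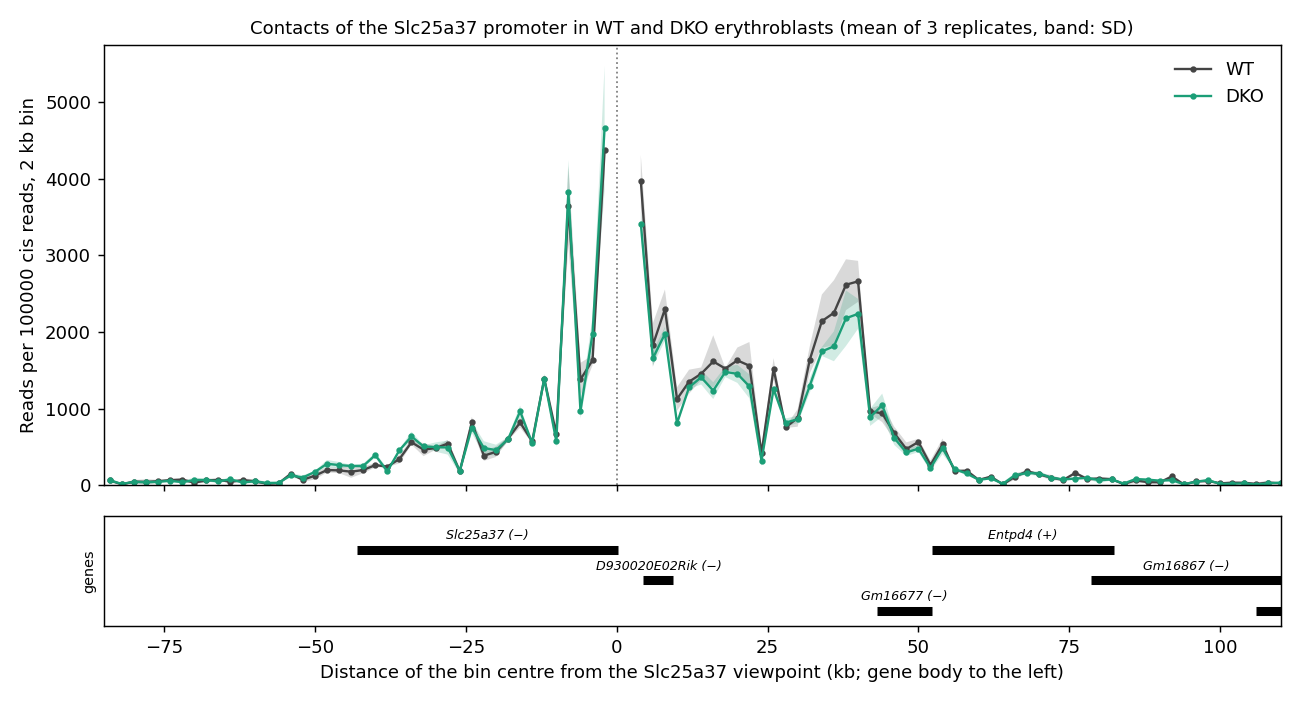
Reads per 100000 cis reads in 2 kb bins (y axis) against distance from the Slc25a37 viewpoint in kb (x axis), with genes below, as mean (line) and SD (band) of 3 WT and 3 DKO replicates. Both profiles had a local peak at -8 kb, with 3648 in WT and 3823 in DKO. Upstream, both fell from +40 kb (2662 in WT and 2238 in DKO) to +42 kb (969.6 and 889.5), before the start of Entpd4.

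By limma, 0 of 603 bins passed an adjusted p of 0.05 between DKO and WT (0.0% in either direction). At an unadjusted p under 0.05, limma had 23 higher (3.81%) and 9 lower (1.49%) bins. edgeR and DESeq2 called 0 bins, with 40 and 20 at an unadjusted p under 0.05. Groups did not overlap in 41 higher bins (6.8%) and 35 lower bins (5.8%). Upstream within 50 kb, 2 of 24 bins had a positive difference, the median was -0.21, and 6 bins were lower without overlap and 0 higher. In the gene body 14 of 21 were positive, with a median of 0.07, whereas over all bins 54.4% were positive with a median of 0.09. In simulated counts with known folds and the same fixed spread, limma called 2 of 63 bins changed 4-fold and 0 of 68 changed 2-fold. For edgeR these were 36 of 63 and 7 of 68. The absence of limma calls therefore does not show that no bin differed.

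In the +40 kb bin, WT replicates had 2355, 2847 and 2784 reads per 100000 cis reads and DKO replicates 2068, 2452 and 2195, which overlapped (exact permutation p = 0.2). In the +34 kb bin they had 1742, 2349 and 2338 against 1777, 1786 and 1681, which also overlapped (exact permutation p = 0.3). The -8 kb bin had 3070, 3820 and 4054 in WT and 3348, 4155 and 3966 in DKO (exact permutation p = 0.6). Among the 10 highest bins, those at +26 kb (1521 ± 140 and 1257 ± 47.1) and +32 kb (1640 ± 178 and 1301 ± 93.7) were lower in DKO without overlap (exact permutation p = 0.1 each, n = 3). The D930020E02Rik promoter bin had 964, 1268 and 1150 in WT and 812, 772 and 849 in DKO, also without overlap (exact permutation p = 0.1). Chmp7 had 106 ± 12.4 in WT and 80.4 ± 7.60 in DKO and did not overlap either (exact permutation p = 0.1, n = 3). R3hcc1 and Pebp4, at +214.6 and +337.3 kb, were higher in DKO without overlap, with 26.8 and 46.9 for R3hcc1 and 2.82 and 15.1 for Pebp4, which rested on at most 3 reads per library. The +76 kb bin in an exon of Entpd4 had 164 ± 6.79 in WT and 91.0 ± 14.5 in DKO (SD, n = 3). It was chosen after its values were seen, since limma gave it an adjusted p of 0.81 among all bins and 0.00925 when bins with a mean under 100 were left out.

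The untreated, DMSO and DRB libraries asked whether blocked elongation alters these interactions, with 1 library each and hence no test. Within 50 kb, untreated cells held 44.4% of cis reads (exact binomial 95% interval 42.9% to 45.8%), DMSO 45.0% (43.2% to 46.8%) and DRB 43.4% (42.2% to 44.6%). The log2 ratio of DRB to DMSO was -0.05, with a counting interval of -0.12 to 0.02, and that of DRB to untreated was -0.03 (-0.09 to 0.03). The gene body held 17.4%, 16.5% and 16.4%, and the log2 ratio of DRB to DMSO was -0.01 (-0.15 to 0.13). Upstream within 50 kb the shares were 26.1%, 27.0% and 26.0%, with a DRB to DMSO ratio of -0.06 (-0.16 to 0.05). Differences within these intervals were not detectable at this depth. These 3 libraries held lower shares within 50 kb than the 30 h and WT replicates, 52.3% to 59.9%. Although made from 30 h cells, they lay near the 0 h replicates, which held 43.6% to 46.8%. In the gene body and upstream, the 0 h replicates held 15.8% to 17.1% and 26.9% to 29.4%. The higher shares at 30 h were therefore not seen in these libraries. The untreated, DMSO and DRB libraries were made with a low-input protocol, so protocol and sample cannot be told apart in that difference.

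At the level of 2 kb bins, DRB differed from DMSO by more than 2-fold in 340 bins that were higher (20.5%) and 1143 that were lower (68.9%) among 1659 with a mean of at least 10. Such bins rested on few reads, since 3 reads were worth 103.4 in the DMSO library and 47.0 in the DRB library. Of the 48 bins within 50 kb, 3 were more than 2-fold higher and 1 was lower with DRB, and the median log2 ratio was -0.08. DMSO against untreated gave 1 higher and 2 lower, with a median of 0.04. The -8 kb bin held 112 reads in untreated, 90 in DMSO and 186 in DRB, or 2513, 3103 and 2912 per 100000 cis reads. The +40 kb bin had 1818, 1483 and 2004, and the +34 kb bin 1459, 1207 and 1456. The NextSeq means at 0 h and 30 h were 2533 and 4359 at -8 kb. They were 1208 and 2243 at +34 kb, and 1498 and 2564 at +40 kb. Bins with the largest ratios had few reads. The bin at -74 kb had 4 reads in untreated, 0 in DMSO and 9 in DRB, and a bin in Mtmr6 at -9000 kb had 0, 4 and 0.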

How the data were processed

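NG Capture-C libraries were made with DpnII. The authors trimmed reads with Trim Galore, aligned them to mm9 with Bowtie per the labels, and counted reporter reads per fragment with their own scripts. The deposited values are closest to RPM, but are reads per 100000 reporter reads of the viewpoint. All (100.0%) were whole multiples of 1 read within a tolerance of 0.05, so whole reads were recovered (1815 to 38956 per library). Here, fragments within 1 kb of captured fragments were left out, values were scaled to 100000 cis reads, and limma 3.58.1 compared 2 kb bins averaging 10 or more on log2(value + 1) with Benjamini-Hochberg adjustment over chromosome 14. The study names DESeq2, and edgeR 4.0.16 and DESeq2 1.42.0 on recovered reads were alternatives. Two-sided exact permutation tests over replicates were used for shares. NextSeq runs were used, with MiSeq runs as an alternative, because they sequenced the same libraries. Groups came from sample labels, and 18 samples without this viewpoint were not used. DKO and WT labels do not list the viewpoint, but their tables hold it. Named bins were the 10 highest at 30 h between 10 and 500 kb, the promoters within 500 kb (the 5 highest named, 1 of which is not reported here), the bin with the smallest adjusted p past the threshold in each direction, and the bins with the largest DRB to DMSO ratio with a mean of at least 50. Genes came from GENCODE vM1 (mm9). Scripts were tested on simulated data, where limma called few of the bins changed by known folds and, for 30 h minus 0 h, also unchanged bins. The viewpoint, lists and tests were chosen with earlier results of these data known. Limits of depth are given with the values.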

Additional observations from a re-analysis of the deposited data

How the results depend on the processing

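Over 24 results and 209 alternatives, 185 were counted as the same. For comparisons of replicates this meant no opposite sign, or the same number of called bins. For DRB against DMSO it meant a value inside the counting interval of the main value. The log2 ratio of downstream to upstream reads was so counted at -0.1053 and -0.0633, against 0.0069 in the main setting. For bins more than 2-fold apart, 1815 and 1325 were counted as the same as 1483. No share could pass 0.05 under any alternative, so the side of that threshold was fixed by the number of replicates. For 30 h minus 0 h, the log2 ratio of downstream to upstream reads changed sign with 5 kb left out around the viewpoint (0.0129), in the MiSeq run (0.0941) and for the mean of runs (0.0320). The cis share changed sign in the MiSeq run (-0.0248) and for the mean of runs (-0.0074), and the difference from Hbb1/2 changed sign when scaled to all reporter reads (0.1001) and in the MiSeq run (0.0263). Leaving out 1 replicate gave -0.0654 to 0.0284 for the downstream to upstream ratio, -0.0555 to 0.0531 for the cis share and -0.0450 to 0.0014 for the difference from Hbb1/2, and in DKO minus WT -0.0303 to 0.0587 for the cis share and -0.0345 to 0.1563 against Hbb1/2. The shares within 50 kb, within 500 kb, in the gene body and upstream kept their sign in all alternatives run. Called bins for 30 h minus 0 h numbered 0, but 2 with DESeq2, 4 among bins within 500 kb, 3 with a trend of the variance in limma and 1 with DESeq2 on MiSeq reads. The settings with DESeq2 or the trend called the -8 kb bin, and the 4 bins within 500 kb had 0 reads in all libraries of 1 group. For DKO minus WT, they numbered 0, but 1 with 5 kb bins, 1 with 5 kb left out and 1 with a minimum mean of 100, and leaving out 1 replicate gave 0 to 5, the highest without WT replicate 1. With a minimum mean of 100, 11 bins differed more than 2-fold between DRB and DMSO instead of 1483. The trend, minimum mean of 100 and MiSeq count tests were chosen after seeing the data. The cause of these differences was not tested.

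Under a replicate block, limma called 0 bins in both comparisons (40 and 24 at an unadjusted p under 0.05), and no share reached below an exact permutation p of 0.25, the smallest possible. The numbers were not treated as pairing the samples. Same-numbered replicates correlated at 0.15, 0.03 and 0.10 for 30 h and 0 h, and others at -0.21 to 0.20. For DKO and WT these were 0.30, 0.01 and -0.01, and -0.24 to 0.24. Reporter reads did go with the number, at 13839, 16456 and 29218 (0 h) and 5077, 6687 and 11075 (30 h). WT had 38956, 20239 and 23248, and DKO 36486, 19532 and 24932. Whether the numbers pair the samples is therefore not settled. Taken by number, DKO lay below WT in each pair within 50 kb and upstream.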

Other observations

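Beyond 500 kb, the bin with the highest mean in WT lay in an intron of Epb4.9 (chr14:71024001-71026000, +1122 kb), the gene for dematin, an actin-binding protein of the red cell membrane skeleton. It was chosen after its values were seen. WT replicates had 97.3, 108 and 88.0 reads per 100000 cis reads, and the bins within 10 kb on each side averaged 11.9 to 45.6. DKO replicates had 78.0, 75.7 and 29.9, which is a description only, since the bin was chosen for its level in WT. At 0 h it had 13.3, 0 and 17.3 and at 30 h 74.2, 27.3 and 29.3 in the NextSeq run, without overlap, whereas the MiSeq values overlapped (exact permutation p = 0.2). The NextSeq values at both times rested on at most 3 reads per library. The untreated, DMSO and DRB libraries held 1, 1 and 3 reads there. The next-highest bin, in Bin3 at +598 kb, had a WT mean of 61.9.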
